A study of Homo sapiens with 4 samples.

Results

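The integrins, laminins and collagens are the receptors with which cells hold on to the extracellular matrix and the main proteins of that matrix. They were taken here as every gene of the deposited table whose symbol is built as ITGA or ITGB, as LAMA, LAMB or LAMC, or as COL with a type and a chain number. This gave 80 of the 32955 genes listed, of which 25 were integrins, 12 laminins and 43 collagens. A further 2 annotated genes with symbols of this kind were not analysed here. RNA-seq was run on MDA-MB-231, an established human breast cancer cell line without estrogen receptor, in 4 libraries that each carry a replicate number of 1 or 2. Cells behind 2 of the libraries had received mimic NC, a control oligonucleotide, and those behind the other 2 had received miR-217 mimic, a synthetic duplex that acts as the microRNA. No other treatment was labelled, and dose and time of harvest are not given in the sources used here. The cultures were of this line alone, and the labels do not say whether the libraries of a group came from separate cultures, so p-values measure only the spread between these samples.

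Values are RPKM, read numbers scaled to gene length and to the depth of the library, and can be compared between genes. The libraries held 32635814 to 57933183 reads, with the fewest in miR-217 mimic replicate 2. VIM, a mesenchymal filament gene, was at 27.9 to 36.9 RPKM and the estrogen receptor gene ESR1 was at or below 0.0756, while KRT8, an epithelial keratin, was at 154 to 421. The 4 libraries differed most between the replicate numbers, since the first principal component of the 13871 genes tested held 71.3% of the variance and separated number 1 from number 2. The labels do not say what this number marks, and every mimic difference is therefore also given within each number. In bulk RNA, fewer cells of a kind and less RNA per cell cannot be told apart.

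An integrin consists of an alpha and a beta subunit, and the pairing decides which matrix protein it binds. ITGB1 pairs with most of the alpha subunits for collagen, laminin and fibronectin, ITGA6 with ITGB4 anchors epithelial cells in hemidesmosomes, and ITGAV takes several beta partners. A laminin is a cross-shaped assembly of an alpha, a beta and a gamma chain that forms the sheet of a basement membrane. Collagens wind their chains into stiff helices that form fibrils, networks (type IV) or links between them. In epithelial cancers, invading cells meet and remodel these proteins at the basement membrane.

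The microRNA and its possible sites in these transcripts are shown first, since the mimic would act through them. The mature microRNA, from RefSeq (GRCh38.p14, chr2:55983020-55983042, minus strand), is printed with its seed, bases 2 to 8, in capitals.
hsa-miR-217-5p: uACUGCAUcaggaacugauugga
Pairing with the seed gives ATGCAGT, called the heptamer here, while ATGCAGTA, with a final A, is called the 8-base site. In the longest 3'UTR annotated in GENCODE 29 (GRCh38), read on the transcript strand only, 11 of the 80 genes held the heptamer, or 13.8%, and 5 held the 8-base site. Among genes expressed highly enough to be tested the share was 15.2% (5 of 33), compared with 14.5% of all 9911 tested genes with a 3'UTR. The sites of these 5 genes, each in the last exon, are shown with 15 bases before them and the match in capitals.
ITGAV (chr2:186679053-186679075, plus strand): aaagagcttaatcatATGCAGTA
LAMA4 (chr6:112108853-112108875, minus strand): cagaatactagaaaaATGCAGTA
COL5A1 (chr9:134844114-134844135, plus strand): cccaccaccaccagaATGCAGT
COL4A5 (chrX:108696425-108696446, plus strand): tataaaattcctaggATGCAGT
LAMA3, site 1 (chr18:23955033-23955054, plus strand): ttatggaattaaaaaATGCAGT
LAMA3, site 2 (chr18:23955252-23955273, plus strand): ctgcccttaaggaatATGCAGT
The heptamer in COL4A5 begins 62 bases after the stop codon, nearest to it of the 5 genes, and that in COL5A1 begins 1826 bases after it. Site 2 of LAMA3 lies beyond the end of this gene in the deposited table. The other 6 genes with the heptamer, COL21A1, COL4A6, COL6A6, COL8A1, ITGA9 and ITGB8, were below the limit for testing. A match is a description of the annotated sequence, and whether the microRNA binds there was not tested.

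Together the 80 genes took 0.565% to 0.633% of the reads of a library. Of them, 33 had a mean of at least 1 RPKM and were tested (10 integrins, 8 laminins and 15 collagens), and 15 had a mean of at least 10 RPKM. A mean below 0.1 RPKM was found for 23 genes, and 12 were listed at 0 in at least 1 library.

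Among the integrins, ITGB1 (chr10:32900319-33005792) was far above the rest. It was at 144 and 173 RPKM in mimic NC replicates 1 and 2 and at 141 and 154 RPKM in miR-217 mimic replicates 1 and 2, the order used for all 4 values below. This subunit made up 89.6% to 90.8% of the RPKM of all integrin beta genes in each library. Its level was 2.56 to 2.76 times the summed level of all integrin alpha genes.

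The alpha subunits of the collagen, laminin and fibronectin receptors came next and lay close together. ITGA1, a collagen receptor subunit, was at 15.2, 13.1, 13.7 and 12.1 RPKM, although 5.63% of its exon bases are shared with other genes on the same strand. The laminin receptor subunits ITGA6 (10.4, 15.1, 9.76 and 13.9 RPKM) and ITGA3 (11.4, 13.3, 10.1 and 12.9 RPKM) overlapped with ITGA1 and with each other. ITGA5, the fibronectin receptor subunit, was somewhat lower at 9.07, 9.97, 7.30 and 9.28 RPKM. ITGA2, a collagen receptor subunit whose gene lies 30115 bases from ITGA1 on the same strand, was much lower, at 1.21, 2.12, 1.13 and 2.03 RPKM.

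For the subunits that partner ITGAV, ITGB5 was the most abundant beta apart from ITGB1. ITGAV was at 5.27 to 6.37 RPKM and ITGB5 at 7.70 to 9.61 RPKM. The remaining partners were low, with ITGB8 at 0.352 to 0.576 RPKM, ITGB3 at 0.0938 to 0.134 and ITGB6 at 0.00996 to 0.0619. The value of ITGB3 is uncertain, because 51.6% of its exon bases are shared with another listed gene on the same strand. ITGB4, the partner of ITGA6 in hemidesmosomes, was at 5.56 to 7.19 RPKM, below ITGA6 in every library.

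Of the laminins, the gamma chain LAMC1 (chr1:183023460-183145592) was the most even, at 53.3, 56.5, 55.9 and 57.7 RPKM. LAMB1 (chr7:107923799-108003255), the beta chain found in most laminins, was at 43.9, 54.8, 45.7 and 70.2 RPKM, and overlapped with LAMC1. The alpha chains were lower than these chains, with LAMA5 at 12.4 to 13.9 RPKM and LAMA4, the alpha chain of vascular basement membranes, at 2.61, 4.28, 3.04 and 5.08 RPKM.

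LAMB3 and LAMA3, chains of laminin-332, which fixes epithelium to the basement membrane, were unequal. LAMB3 (chr1:209614870-209652466) was at 30.8, 24.5, 21.6 and 20.9 RPKM, whereas LAMA3 stayed between 1.06 and 1.14 RPKM. LAMB3 was thus 18.3 to 29.2 times LAMA3. LAMB2, the beta chain of synaptic and glomerular laminins, was at 18.0, 14.4, 15.9 and 13.1 RPKM. LAMC3 was at 1.25 to 1.48 RPKM, and LAMA1, LAMA2 and LAMB4 were below 1 RPKM on average.

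Of the collagens, 4 genes made up 78.9% to 83.1% of the collagen RPKM in each library. COL7A1 (chr3:48564073-48595267), the collagen of anchoring fibrils under epithelia, was at 81.8, 95.0, 71.0 and 110 RPKM. COL5A1 (chr9:134641774-134844843), a chain of the fibrils that regulate the width of collagen fibres, was at 78.4, 67.8, 69.2 and 46.0 RPKM. The chains of the common basement membrane network followed, with COL4A2 at 60.3, 67.4, 63.2 and 60.8 RPKM and COL4A1 at 21.1, 28.9, 23.3 and 30.2 RPKM.

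Chains that are known to assemble with each other were often at different levels. COL4A1 and COL4A2 lie head to head on chromosome 13 and are made into the same helix, yet COL4A2 was 2.01 to 2.86 times COL4A1. COL4A3 and COL4A4, head to head on chromosome 2 with 451 bases between them, were nearer to each other, with COL4A3 at 1.22 to 1.44 times COL4A4. On chromosome X, COL4A5 was 7.67 to 11.8 times its head-to-head neighbour COL4A6. COL5A1 was 72.6 to 146 times COL5A2, and COL6A1, at 10.1 to 11.1 RPKM, was 32.8 to 43.0 times COL6A2. The collagen VI chain COL6A3 was at 0.0151 to 0.0343 RPKM.

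The fibrillar collagens of connective tissue were scarce. COL1A1 was at 1.10, 0.434, 1.02 and 0.506 RPKM and COL3A1 at 1.24, 0.424, 1.18 and 0.419 RPKM. COL1A2, which joins COL1A1 in collagen I, was listed at 0 in 3 libraries and had 2 reads in miR-217 mimic replicate 2. COL12A1, which sits on the surface of fibrils, was at 14.1, 13.2, 16.5 and 15.5 RPKM.

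**Figure D1:**
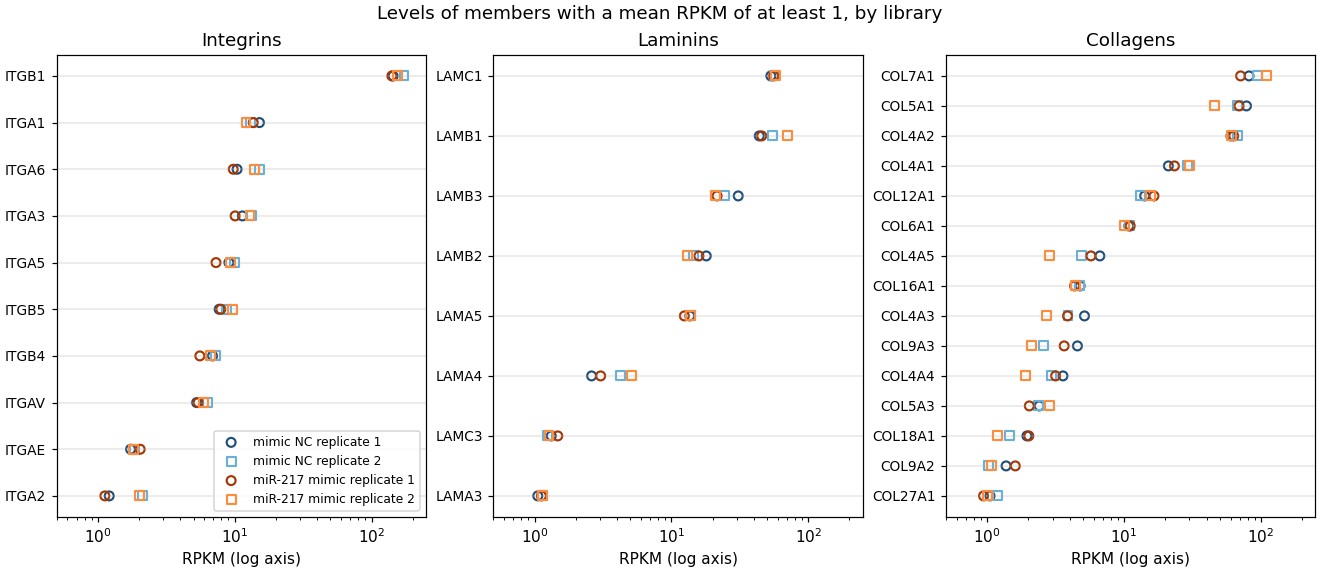
RPKM on a log axis of the 33 genes with a mean of at least 1 RPKM, with 1 point per library (circles for replicate number 1, squares for number 2, blue for mimic NC, orange for miR-217 mimic). ITGB1 stands above the other integrins in all 4 libraries, and in ITGA6, ITGA2, LAMA4 and COL4A1 both squares lie to the right of both circles.

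**Figure D2:**
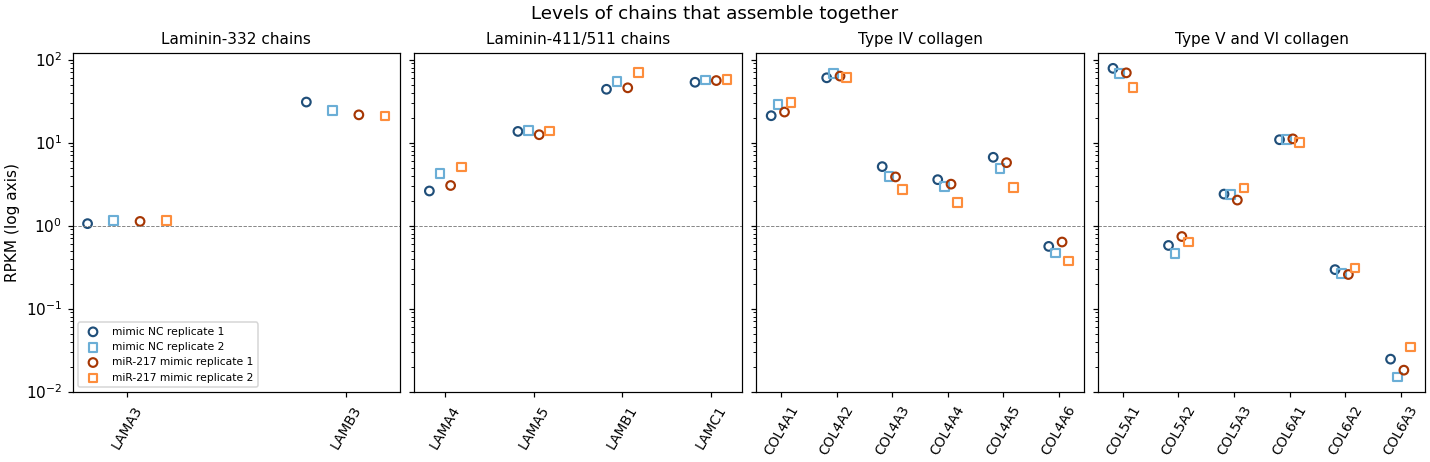
RPKM on a log axis of chains that assemble together, with 1 point per library and the same colours and marks, and a dashed line at 1 RPKM. LAMB3 lies 18.3 to 29.2 times above LAMA3, and COL5A1 72.6 to 146 times above COL5A2.

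With miR-217 mimic, 0 of the 33 tested integrin, laminin and collagen genes passed the test. Passing the test meant lying beyond both lines, an unadjusted limma p under 0.05 and an absolute difference of 0.32 or more on log2(RPKM + 1), and this held for 1.15% of all 13871 genes tested (0.476% higher and 0.67% lower). An unadjusted limma p under 0.05 was found for 0 of the 33 genes, compared with 1.19% of all genes (0.483% higher and 0.707% lower), and 0 had a Benjamini-Hochberg adjusted p under 0.05, with an adjusted p = 1.00 for each. In limma voom on reads recovered from the RPKM, 0 of the 33 passed both lines as well. These fits had no term for the replicate number, and the count depended on that. With the number as a further term, 4 genes passed both lines as lower (COL4A3, COL4A5, COL5A1 and LAMB3). They were 12.1% of the 33, compared with 2.24% of all genes. At an adjusted p under 0.05 the count was 0, and the labels do not say that the numbers pair the samples. Without that term, the standard errors of the log2 fold changes on log2(RPKM + 1) ran from 0.11 to 0.31, and differences of that size would not have been detected. The count also changed when miR-217 mimic replicate 1 was left out, but not for any other library. Leaving out 1 library keeps 1 sample in a group and makes the replicate numbers unequal between the groups. The share of all genes is not given for these omissions, so their counts cannot be set against it. For a single gene, the smallest two-sided p that an exact permutation test allows with these 4 libraries is 0.333.

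The lowest value was that of COL4A5, the type IV chain of kidney and skin basement membranes, which has a seed site. The mimic NC libraries had 6.65 and 4.87 RPKM and the miR-217 mimic libraries 5.73 and 2.86. These libraries overlapped, and only miR-217 mimic replicate 2 stood below both mimic NC libraries. The mimic NC mean of 5.76 ± 1.25 RPKM (SD, n = 2) compares with 4.29 ± 2.03 (SD, n = 2) under the mimic. The log2 fold change was -0.40 (SE 0.31), made up of -0.19 within number 1 and -0.61 within number 2.

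COL5A1 is the other tested collagen with the heptamer. Its mimic NC libraries had 78.4 and 67.8 RPKM and its miR-217 mimic libraries 69.2 and 46.0, and again only miR-217 mimic replicate 2 stood apart, below both mimic NC libraries. The log2 fold change was -0.36 (SE 0.23), with -0.18 within number 1 and -0.55 within number 2. Its partner chain COL5A2 had 148 to 282 reads per library, and the ratio of COL5A1 to COL5A2 was 136 and 146 with mimic NC against 93.7 and 72.6 with miR-217 mimic. The groups did not overlap in this ratio, which was singled out after its values were seen. COL5A2, below the limit for testing, was at 0.577 and 0.463 RPKM with mimic NC and at 0.739 and 0.634 RPKM with miR-217 mimic. The lower ratio thus reflects higher values of COL5A2 as well as lower values of COL5A1.

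The minor type IV chains COL4A3 and COL4A4, known from the glomerular basement membrane, also had negative values. COL4A3 had 5.13 and 3.89 RPKM in the mimic NC libraries and 3.86 and 2.70 in those of the mimic. Both miR-217 mimic libraries lay below both mimic NC libraries, though replicate 1 only just did. The log2 fold change was -0.37 (SE 0.20), with -0.34 within number 1 and -0.40 within number 2. COL4A4 had a log2 fold change of -0.29, with -0.14 and -0.44 within the numbers.

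LAMB3, the beta chain of laminin-332, had the lowest unadjusted p of the 33 genes. Its level of 27.6 ± 4.46 RPKM (SD, n = 2) under mimic NC compares with 21.2 ± 0.489 (SD, n = 2) under the mimic. Mimic NC replicate 1 was high at 30.8 RPKM, and both miR-217 mimic libraries lay below both mimic NC libraries. The log2 fold change was -0.36 (SE 0.15, limma p = 0.0708, where an exact permutation test cannot go below 0.333), with -0.49 within number 1 and -0.22 within number 2.

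Positive values were smaller. COL12A1 had 13.6 ± 0.686 RPKM (SD, n = 2) under mimic NC and 16.0 ± 0.728 (SD, n = 2) under the mimic. Both miR-217 mimic libraries were above both mimic NC libraries, and the difference was nearly equal within the numbers, at 0.21 and 0.22. Its log2 fold change of 0.22 had an SE of 0.12. For LAMB1 it was 0.20 and for LAMA4, which holds the 8-base site, it was 0.18, with overlapping libraries in both.

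The integrins had small values of mostly negative sign, with a median log2 fold change of -0.10 over the 10 tested and 8 of them below 0. They ran from -0.19 for ITGA5 and -0.18 for ITGB4 to 0.07 for ITGAE, an alpha subunit known from lymphocytes in epithelia, and 0.08 for ITGB5. ITGB1 had -0.10, ITGA1 -0.12, ITGA6 -0.10, ITGA3 -0.10, ITGA2 -0.05 and ITGAV, which holds the 8-base site, -0.03. The median was 0.04 over the 8 laminins and -0.07 over the 15 collagens, compared with -0.02 over all genes tested. Over the 5 genes with the heptamer it was -0.03, with 0.03 within number 1 and -0.09 within number 2. Over the 28 tested without the heptamer it was -0.07, and of these COL4A4 and COL18A1 hold a shorter seed match with a final A. For all 1440 tested genes with the heptamer the median was -0.04.

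Libraries of the groups did not overlap for 1 higher gene (COL12A1) and 5 lower genes (COL16A1, COL27A1, COL4A3, ITGB4 and LAMB3), 3.03% and 15.2% of the 33. Among all genes tested these shares were 9.72% and 13.5%. The sign of the difference was the same within both replicate numbers for 25 of the 33 genes, 17 lower and 8 higher, or 75.8% compared with 59.5% of all genes tested.

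**Figure D3:**
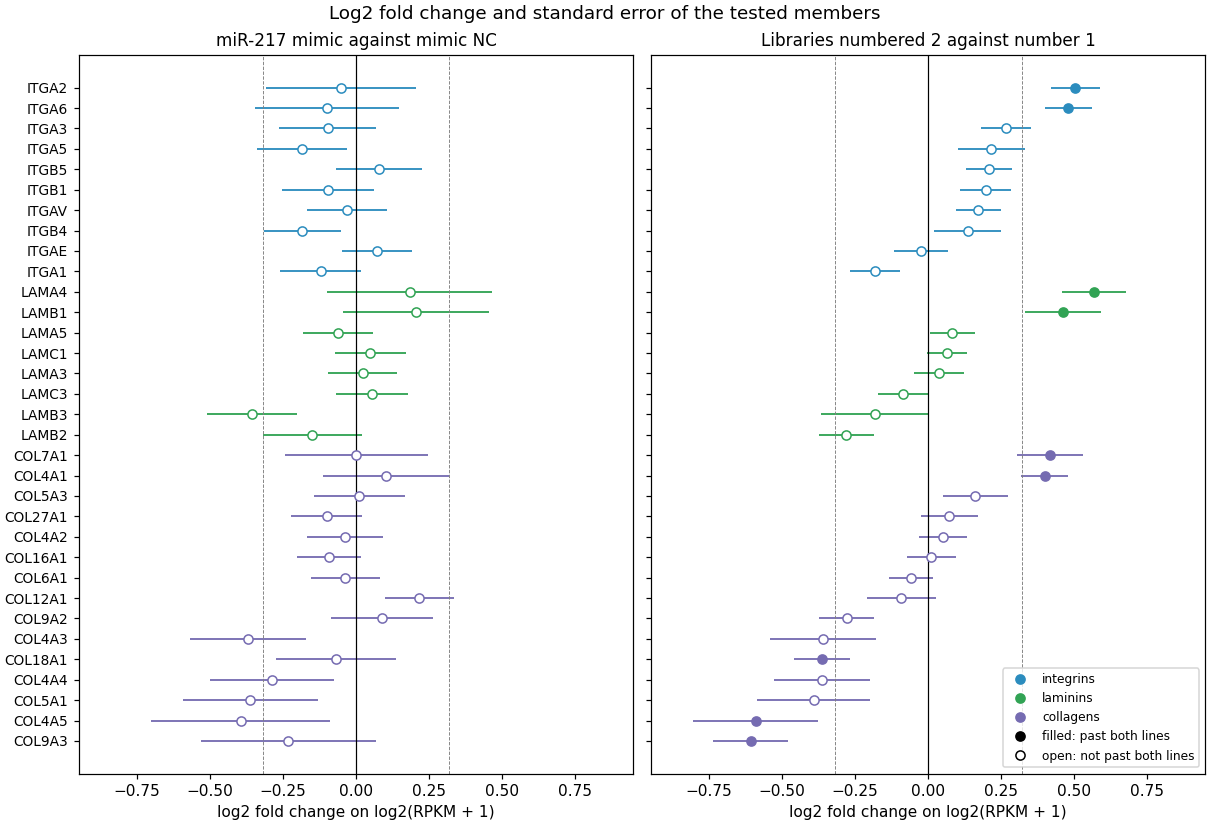
Log2 fold change (points) and standard error (lines) on log2(RPKM + 1) of the 33 genes, for miR-217 mimic against mimic NC on the left and libraries numbered 2 against number 1 on the right, with dashed lines at 0.32 in either direction and filled points for genes past both lines. The left panel has 0 filled points, and the right panel has 9, of which ITGA2, ITGA6, LAMA4, LAMB1, COL7A1 and COL4A1 are higher.

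Between libraries numbered 2 and number 1, 9 of the 33 genes passed both lines, 6 higher and 3 lower. These are 18.2% and 9.09% of the genes, compared with 7.81% and 11.5% of all genes tested. The higher genes were ITGA2 and ITGA6, the laminin chains LAMA4 and LAMB1, and the collagens COL4A1 and COL7A1, while COL4A5, COL9A3 and COL18A1 were lower. An adjusted p under 0.05 was reached by ITGA2 and ITGA6, both higher, 6.06% of the 33 genes, compared with 7.04% of all genes (3.34% higher and 3.71% lower). The counts rested on single libraries, since 5 genes passed both lines without miR-217 mimic replicate 2 (LAMB1, COL7A1, COL4A5 and COL18A1 were lost), 7 without mimic NC replicate 1, 10 without miR-217 mimic replicate 1 and 13 without mimic NC replicate 2. At an adjusted p the same omissions gave 3, 0, 0 and 13 genes. ITGA2, ITGA6, LAMA4 and COL9A3 passed both lines in all 4. In limma voom on recovered reads, 6 genes were higher and 6 lower past both lines. With the group as a further term, 6 were higher and 6 lower (18.2% each), compared with 8.27% and 12.6% of all genes. For voom and the omissions the share of all genes is not given, so those counts cannot be set against it.

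ITGA2 (chr5:52989326-53094779), the alpha subunit of the main epithelial collagen receptor, had 1.21 and 1.13 RPKM in the libraries numbered 1 and 2.12 and 2.03 RPKM in those numbered 2. Each number 2 library was well above both number 1 libraries, from 475 to 795 reads. It rose by 0.50 on the log2 scale (SE 0.08, limma adjusted p = 0.0410), with 0.50 within mimic NC and 0.51 within miR-217 mimic. Its neighbour ITGA1, by contrast, was at 15.2 and 13.7 RPKM in number 1 and 13.1 and 12.1 RPKM in number 2, a log2 difference of -0.18 that passed no line. The ratio of ITGA1 to ITGA2 was 12.5 and 12.1 in number 1 and 6.15 and 5.97 in number 2.

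ITGA6 (chr2:172427354-172506282), the laminin receptor subunit, was at 10.4 and 9.76 RPKM in number 1 and at 15.1 and 13.9 RPKM in number 2. The numbers did not overlap in either group. It rose by 0.48 on the log2 scale (SE 0.08, limma adjusted p = 0.0410), with 0.50 within mimic NC and 0.46 within miR-217 mimic. Its partner ITGB4 had a log2 difference of 0.14 and overlapping libraries. ITGA3, the other laminin receptor subunit, had 0.27 (limma adjusted p = 0.116) and ITGB5 had 0.21 (limma adjusted p = 0.161), both under the fold line. Over the 10 integrins tested, the median was 0.20 compared with -0.04 over all genes. Number 2 lay above number 1 without overlap in 7 (70.0%) and below it in 1 (10.0%), compared with 26.9% and 35.5% of all genes tested.

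Of the laminins, LAMA4 and LAMB1 passed both lines, chains which can join with LAMC1 in a vascular laminin. LAMA4 (chr6:112108760-112254939) was at 2.61 and 3.04 RPKM in number 1 and at 4.28 and 5.08 RPKM in number 2. Every number 2 library was above every number 1 library, and the rise was 0.57 on the log2 scale (SE 0.11, limma adjusted p = 0.0515), with 0.55 within mimic NC and 0.59 within miR-217 mimic. LAMB1 rose by 0.46 (SE 0.13, limma adjusted p = 0.0956), with 0.31 within mimic NC and 0.61 within miR-217 mimic, where replicate 2 stood out at 70.2 RPKM. LAMC1 had 0.06 and LAMA5 0.08, and neither passed a line.

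LAMB2 and LAMB3, the beta chains of other laminins, had values below 0. LAMB2 was at 18.0 and 15.9 RPKM in number 1 and 14.4 and 13.1 RPKM in number 2, a log2 difference of -0.28 (limma adjusted p = 0.131) that stayed under the fold line. LAMB3 had -0.18, with overlapping libraries. LAMB1 made up 47.4% and 54.9% of the RPKM of laminin beta genes in number 1 and 58.5% and 67.4% in number 2. The median of the 8 laminins was 0.05.

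Among the collagens, COL4A1 rose while COL4A2 did not pass a line. COL4A1 (chr13:110148963-110307149) was at 21.1 and 23.3 RPKM in number 1 and 28.9 and 30.2 RPKM in number 2, without overlap, a log2 fold change of 0.40 (SE 0.08, limma adjusted p = 0.0552). COL4A2 had 0.05, with overlapping libraries, and the ratio of COL4A2 to COL4A1 was 2.86 and 2.71 in number 1 and 2.33 and 2.01 in number 2. COL7A1 was at 81.8 and 71.0 RPKM in number 1 and 95.0 and 110 RPKM in number 2, and its rise of 0.42 (SE 0.11, limma adjusted p = 0.0898) was 0.21 within mimic NC and 0.62 within miR-217 mimic.

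Of the 3 collagens that were lower past both lines, COL9A3 (chr20:62816244-62841159), a collagen IX chain known from cartilage, had the largest fall. It was at 4.56 and 3.65 RPKM in number 1 and at 2.58 and 2.11 RPKM in number 2, and fell by 0.61 on the log2 scale (SE 0.13, limma adjusted p = 0.0579), by 0.63 within mimic NC and by 0.58 within miR-217 mimic. COL9A2, another chain of collagen IX, had -0.28 (limma adjusted p = 0.130), under the fold line. COL4A5 (chrX:108439844-108697545) fell by 0.59 (SE 0.21, limma adjusted p = 0.147), by 0.38 within mimic NC and by 0.80 within miR-217 mimic. COL18A1, the source of endostatin, fell by 0.36 (SE 0.10, limma adjusted p = 0.0865), from 1.95 and 2.01 RPKM in number 1 to 1.46 and 1.19 in number 2, although 16.4% of its exon bases are shared with a gene on the other strand. COL5A1 had -0.39, COL4A4 -0.36 and COL4A3 -0.36, each with a limma adjusted p between 0.210 and 0.251. The median of the 15 collagens was -0.09.

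Numbers 1 and 2 did not overlap for 14 higher and 9 lower genes, 42.4% and 27.3% of the 33, compared with 26.9% and 35.5% of all genes tested. The difference had the same sign within mimic NC and within miR-217 mimic for 28 of the 33 genes, or 84.8%, compared with 75.3% of all genes. Some genes used as markers of luminal epithelial, fibroblast and endothelial cells differed between the numbers too, in cultures of this line alone. Over 7 luminal epithelial genes, led by KRT8 and KRT18, the summed level was 683 to 730 RPKM in number 1 and 305 to 326 in number 2, with ESR1 and GATA3 near 0. KRT8 and KRT18 made up most of this sum, while EPCAM was at 3.90 and 5.16 RPKM in number 1 and 5.06 and 7.41 RPKM in number 2, and FOXA1 had a log2 difference of -0.17. Over 6 fibroblast genes, led by LUM and DCN, the summed level was 12.4 to 13.8 RPKM in number 1 and at most 6.60 RPKM in number 2. Of these genes, PDGFRA and THY1 were near 0, and FAP overlapped, at 0.813 and 0.827 RPKM in number 1 and 0.748 and 1.01 RPKM in number 2. Over 4 endothelial genes, nearly all CDH5, the sum was 3.11 to 3.62 RPKM in number 1 and 1.17 to 1.38 RPKM in number 2, with PECAM1, VWF and KDR near 0. Their part in the differences of the integrin, laminin and collagen genes was not tested.

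**Figure D4:**
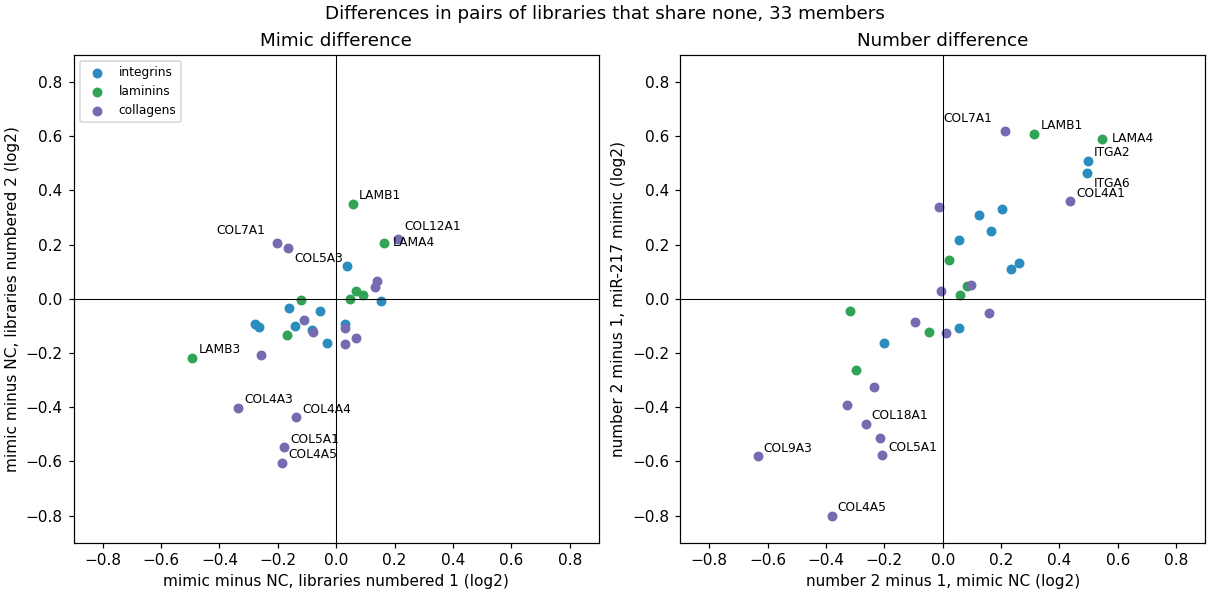
Log2 differences of the 33 genes in pairs of libraries that share none, with mimic minus NC in number 2 against number 1 on the left and number 2 minus 1 in miR-217 mimic against mimic NC on the right, both axes on log2(RPKM + 1). COL4A3 lies near -0.34 and -0.40 on the left, and ITGA2, ITGA6 and LAMA4 lie at 0.46 or above on both axes on the right.

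Genes around these proteins were described with 5 lists, and with miR-217 mimic 0 of their 24, 22, 15, 10 and 10 tested genes passed both lines or had an unadjusted limma p under 0.05. Between the numbers, 2 of 24 genes of the integrin adhesion machinery rose and 6 fell. SLC3A2, which binds beta subunits, rose by 0.69, while the actin crosslinker ACTN4 fell by 0.59, TNS3 by 0.52 and ILK, a scaffold at beta tails, by 0.42. Of 22 genes for collagen modification, 2 rose and 5 fell, among them the lysyl hydroxylases PLOD3 (0.42) and PLOD2 (-0.40), the crosslinking enzyme LOXL2 (-0.44) and the prolyl hydroxylase P4HA2 (-0.42). These shares of 33.3% and 31.8% stand beside the 19.3% of all genes tested that passed both lines in this comparison.

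Other matrix proteins and receptors differed as well. Of 15 matrix glycoproteins, 1 rose and 6 fell (46.7%). CTGF fell from 22.5 and 22.9 RPKM in number 1 to 2.44 and 4.01 in number 2, the largest change of these lists (log2 -2.51, SE 0.19, limma adjusted p = 0.0136), and CYR61, of the same family of adhesive proteins, fell by 1.38. THBS1, a thrombospondin, rose by 0.57, and the microfibril gene FBN1 fell by 0.52. Of 10 other matrix receptors, 3 rose and 3 fell. The collagen receptor kinase DDR2 rose by 1.29, from 3.65 and 4.02 RPKM to 11.9 and 9.76, and the hyaluronan receptor CD44 rose by 0.56. The laminin receptor DAG1 fell by 0.53 and DDR1, another collagen receptor kinase, by 0.48. Of 10 metalloproteinases and inhibitors, 0 rose and 3 fell, which were MMP7 (-0.67), TIMP2 (-0.46) and MMP14 (-0.32).

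The leukocyte integrin genes ITGAL, ITGAM, ITGAX and ITGB2 were below 1 RPKM and were not tested, while ITGAE, at 1.73 to 2.04 RPKM, was tested. ITGB2, the common beta subunit of ITGAL, ITGAM and ITGAX, was at 0.678, 0.727, 0.527 and 0.726 RPKM, from 161 to 267 reads. ITGAL was at 0.115, 0.189, 0.220 and 0.436 RPKM from 43 to 92 reads, ITGAM at 0.0122, 0.0894, 0.112 and 0.206 RPKM from 4 to 38 reads, and ITGAX at 0.0195 to 0.0448 RPKM. In ITGAL and ITGAM both miR-217 mimic libraries were above both mimic NC libraries, and replicate 2 was highest. With genes of low level kept in the fit, the log2 fold changes were 0.20 and 0.14, each with a limma adjusted p = 1.00. PTPRC, a general leukocyte marker, was at 0.351, 0.414, 0.504 and 1.25 RPKM, also highest in that library, and 6 leukocyte markers summed to 1.47 to 1.95 RPKM with mimic NC and 2.48 to 2.98 RPKM with miR-217 mimic. Their part in these values was not tested.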

How the data were processed

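RNA-seq of the 4 MDA-MB-231 libraries was analysed from the RPKM table that the authors deposited, with groups and replicate numbers from the sample labels and columns matched by name. The submitters' processing notes name Trimmomatic 0.36, featureCounts, Subread 1.5.1, edgeR 3.12.1 and hg38. The aligner and the annotation are not given in the sources used here. The deposited RPKM values were scaled to the reads counted on all listed genes and to gene length only. All nonzero values (100%) came out within 0.05 read of a whole number, which recovered the depths of 57933183 (mimic NC replicate 1), 47374957 (mimic NC replicate 2), 53356283 (miR-217 mimic replicate 1) and 32635814 reads (miR-217 mimic replicate 2). Low genes are least precise in the smallest library, and strand was marked by the library kit, but whether counting used it is not given in the sources used here.

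Values were fitted as log2(RPKM + 1) with limma 3.58.1 in R 4.3.3 (lmFit, eBayes with trend) over the 13871 genes that averaged 1 RPKM or more, with the group or the replicate number as the only term. Tests were two-sided with Benjamini-Hochberg adjustment over all genes tested. Fold changes on this scale understate changes of low genes. The fit was tested on simulated data. Named were genes with a mean of at least 10 RPKM, in each family and comparison the 3 largest rises and 3 largest falls among tested genes, those with an unadjusted p under 0.05, chains of known assemblies, tested genes with a seed site, leukocyte integrins and at most 4 genes past both lines per pathway list. The genes, lists and rules were chosen with earlier results of these data known. All 80 genes overlapped the GENCODE 29 gene of the same name. Alternatives were median centring, a pseudocount of 0.1, a limit of 5 RPKM or none for the filter, limma voom on recovered reads, the replicate number or group as a further term, the 8-base site and leaving out each library. Plots were made with matplotlib 3.10.9 in Python 3.11.15. Of the laminins, 1 gene is not reported here.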

Additional observations from a re-analysis of the deposited data

Results flagged for a closer look

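COL7A1 and COL5A3 differed between the groups in opposite directions in the replicate numbers, by at least 0.1 in each. For COL7A1, miR-217 mimic minus mimic NC was -0.20 within number 1 (71.0 against 81.8 RPKM) and 0.20 within number 2 (110 against 95.0 RPKM). For COL5A3, a fibrillar collagen V chain, it was -0.16 within number 1 (2.03 against 2.40 RPKM) and 0.19 within number 2 (2.83 against 2.36 RPKM). With 1 library of each group per number, these opposite directions were not tested.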

How the results depend on the processing

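For miR-217 mimic against mimic NC, 0 integrin, laminin and collagen genes passed both lines with median centring, a pseudocount of 0.1, a limit of 5 RPKM, none at all, or voom, and leaving out each library gave 0 to 4. With the replicate block 4 passed (COL4A3, COL4A5, COL5A1 and LAMB3, all lower), where 1.27% of all genes were higher and 2.24% lower. Adding voom to the block (an alternative added once the data were seen) gave 5, also COL4A4. For voom with the block and for the omissions the share of all genes is not given, so those counts cannot be set against it. The deviations of libraries that share a number correlated at 0.68 over genes, but the labels do not say that the numbers pair the samples. At an adjusted p the count was 0 under every alternative. The median over genes with the heptamer was -0.36 at a mean RPKM of at least 5, which leaves COL5A1, COL4A5 and ITGAV and is the value of COL5A1. Over the 2 tested genes with the 8-base site, LAMA4 and ITGAV, the median was 0.076. When a library was left out, the heptamer median was -0.15 to 0.053. Between the numbers, 5 genes passed both lines at a mean RPKM of at least 5, and 5 to 13 when a library was left out. At an adjusted p, no filter gave 0, the group as a term 5, voom 8, voom with the group as a term (chosen after seeing the data) 14, and leaving out a library 0 to 13. Without 1 library, log2 fold changes with the mimic changed sign for COL4A5 (-0.80 to 0.0050), COL9A2 (-0.074 to 0.25), COL4A1 (-0.12 to 0.32), ITGB5 (-0.047 to 0.20), ITGAV (-0.15 to 0.086), LAMA3 (-0.0080 to 0.053), LAMA4 (-0.11 to 0.48), LAMA5 (-0.13 to 0.0076), LAMB1 (-0.10 to 0.51) and LAMC3 (-0.0080 to 0.12), and between the numbers for ITGAE (-0.10 to 0.051) and LAMB3 (-0.43 to 0.064). ITGAE was also 0.0020 between the numbers under median centring. The cause was not tested, beyond the fewer genes or samples that a filter or an omission leaves. The reads limit the 47 genes below 1 RPKM, 9 of which had at most 3 reads in every library.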

Other observations

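Some collagens below the limit for testing differed between the replicate numbers in both groups. They were picked out after their values were seen. COL15A1, a collagen of basement membrane zones, had 84 and 31 reads in the libraries numbered 1 and 343 and 159 reads in those numbered 2, which is 0.218 and 0.0873 RPKM against 1.09 and 0.732 RPKM. The fibrillar collagens COL3A1 and COL1A1 went the other way, with COL3A1 at 494 and 432 reads in number 1 and 138 and 94 reads in number 2. COL13A1, a membrane-bound collagen, had 100 and 77 reads in number 1 and 12 and 8 reads in number 2. With genes of low level kept in the limma fit, the log2 differences were 0.72 for COL15A1, -0.64 for COL3A1, -0.49 for COL1A1 and -0.29 for COL13A1. Their limma adjusted p-values were between 0.118 and 0.141, and so 0 of these 4 passed the adjustment over all genes listed. Since the 4 were picked for these values, their p-values lend no support to the differences.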
